A study of Homo sapiens with 24 samples.

Results

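The colony-stimulating factors and leukemia inhibitory factor are secreted cytokines, and 8 genes encode the 4 ligands and the subunits through which each is bound: CSF1, CSF2, CSF3 and LIF, and CSF1R, CSF2RA, CSF3R and LIFR. They were found by gene symbol in RNA-seq count tables of 57820 genes from 24 libraries, in which 9 rows carry one of the 8 symbols, since CSF2RA lies in a region shared by the X and Y chromosomes and has a row on each. The Y row held no read in any library and the X row was used. The 8 genes were selected on their CPM levels across the 8 groups, which were known when they were chosen, so the values below describe them and are not a test of them, and no p-value is given for any of the 8.

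All libraries came from U2OS, a human osteosarcoma cell line, with 3 biological replicates in each of 8 groups. Wild-type (WT) and ID3-knockout (KO) U2OS cells were either untreated or exposed to mocetinostat, an inhibitor of class I histone deacetylases, for 24 h and collected at once. WT and KO AID-DIvA cells, a U2OS derivative carrying an inducible AsiSI nuclease, were either untreated or exposed to mocetinostat for 24 h and then kept for 24 h in medium without it. The collection stage thus coincides with the cell line and the 2 cannot be told apart. For the 12 AID-DIvA libraries, the sample titles and the treatment field of the labels give opposite treatments. Titles were followed, and the direction of every AID-DIvA treatment difference and interaction rests on them. With the treatment field in their place, these signs would turn and the untreated and recovered AID-DIvA groups would change places. Neither a dose of mocetinostat for these cultures nor whether a KO line is 1 clone was given in the sources used here.

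Library totals ran from 37878751 to 76906266 counts, so a gene with no read could lie at up to 0.0390 to 0.0792 CPM (counts scaled to a library of 1000000) in a library, counting error only. ID3 transcripts were still counted in the KO cells, at 32.0 to 38.8 CPM in untreated AID-DIvA KO cells against 47.9 to 51.9 CPM in their WT counterparts, and at 29.3 to 32.2 against 52.1 to 80.7 CPM in untreated U2OS cells. Osteoblast lineage markers differed in level. COL1A1 lay between 824 and 2528 CPM, SPARC between 871 and 1550 CPM and RUNX2 between 11.8 and 48.0 CPM. ALPL was lower, at 0.618 to 6.95 CPM, BGLAP was at 0.225 to 0.689 CPM, and SP7 had at most 6 counts in a library. Replicate 1 of the untreated WT U2OS group stood apart from the other two, with a mean chi-square per gene of 92.4 and 82.0 against 4.06 between the others. Without it, 23 of the 25 pathway and neighbouring genes called between treated and untreated WT U2OS cells were still called, all but IL6R and CEBPD. Of the 5 called between untreated KO and WT U2OS cells 4 were, all but SOCS1, and the log2 differences of CSF1, CSF2, LIF, CSF1R, CSF2RA and LIFR in these comparisons are also given without it.

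Each cytokine acts through its own receptor chain. CSF1, or M-CSF, binds CSF1R, a receptor tyrosine kinase that sustains monocytes, macrophages and osteoclasts. CSF2, or GM-CSF, binds CSF2RA, which signals only with the shared subunit CSF2RB, and CSF3, or G-CSF, binds CSF3R, which drives neutrophil production. LIF belongs to the interleukin-6 family and binds LIFR, which pairs with IL6ST (gp130) to activate JAK kinases and STAT3. Bone-forming cells are known sources of CSF1 and LIF, and they also carry LIFR.

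The upstream sequences of 3 of these genes are shown because they were among those whose levels differed between treated and untreated cells, and because they contrast in composition. RefSeq promoter windows on GRCh38.p14 matched 5 of the 8 genes (CSF2, CSF1R, CSF2RA, CSF3R and LIFR). The 250 bases before the transcription start are printed 5′ to 3′, and capitals mark matches, on either strand, to the E-box (CANNTG, bound by the E proteins that ID proteins hold off DNA), AP-1 (TGANTCA), a STAT palindrome (TTC, any 3 bases, GAA), the GC box (GGGCGG) or the kappaB consensus. Adjoining matches merge into 1 run of capitals.
CSF2, chr5:132073539-132073788, plus strand: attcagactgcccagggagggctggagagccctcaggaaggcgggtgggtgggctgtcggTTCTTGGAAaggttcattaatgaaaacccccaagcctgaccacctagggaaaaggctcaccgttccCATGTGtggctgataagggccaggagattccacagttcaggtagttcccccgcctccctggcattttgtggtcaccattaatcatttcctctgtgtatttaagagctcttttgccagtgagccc
CSF1R, chr5:150113366-150113615, minus strand: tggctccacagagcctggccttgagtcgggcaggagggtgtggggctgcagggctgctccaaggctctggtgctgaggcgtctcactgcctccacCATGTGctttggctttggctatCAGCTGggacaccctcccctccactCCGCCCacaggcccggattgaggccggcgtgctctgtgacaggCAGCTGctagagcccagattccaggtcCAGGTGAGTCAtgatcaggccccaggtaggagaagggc
CSF1R, chr5:150086555-150086804, minus strand: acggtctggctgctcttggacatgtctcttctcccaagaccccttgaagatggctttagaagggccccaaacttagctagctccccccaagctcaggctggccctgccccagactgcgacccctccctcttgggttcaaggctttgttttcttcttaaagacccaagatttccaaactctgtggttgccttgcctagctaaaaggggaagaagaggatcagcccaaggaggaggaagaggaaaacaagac
LIFR, chr5:38556647-38556896, minus strand: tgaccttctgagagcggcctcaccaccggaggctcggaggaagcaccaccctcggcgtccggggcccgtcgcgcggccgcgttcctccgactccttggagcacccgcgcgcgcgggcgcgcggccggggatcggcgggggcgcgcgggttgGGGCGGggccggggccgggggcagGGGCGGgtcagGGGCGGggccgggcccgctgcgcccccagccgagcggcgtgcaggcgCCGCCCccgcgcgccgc

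The CSF2 window held 1 STAT palindrome starting at -190 and 1 E-box at -124, counted from the start site, and no match to AP-1, the GC box or the kappaB consensus. The upstream CSF1R start had 4 E-boxes at -155, -133, -65 and -38, an AP-1 match at -34 that overlaps the last of them, and a GC box at -108. The other CSF1R start had no match to any of the 5 motifs. LIFR has 3 start sites in the table, and the window shown had 4 GC boxes and no other match. Of the LIFR windows not shown, one held a STAT palindrome at -165 and E-boxes at -249 and -36, and the other a STAT palindrome at -182 and an E-box at -123, with no GC box in either. Among all 35116 windows of this length, 61.8% held an E-box, 42.6% a GC box, 6.57% an AP-1 match, 6.57% the STAT palindrome and 5.21% the kappaB consensus. A match is a run of letters and not a measured site.

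Per kilobase of exonic length, averaged over the 8 groups, LIF was the most abundant of the 8 transcripts at 23.3 CPM per kb, and LIFR followed at 5.52 CPM per kb. CSF1 lay at 2.40 and CSF2RA at 1.96 CPM per kb. CSF2 averaged 1.14, CSF1R 0.391 and CSF3 0.271 CPM per kb, while CSF3R was at 0.0023 CPM per kb. All levels that follow are CPM scaled by TMM factors, and a gene was called when edgeR's quasi-likelihood test across all genes gave an adjusted p below 0.05 and a log2 difference beyond 1. Only 7 of the 8 genes had more than 3 counts in any library.

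CSF2, at chr5:131409483-131411859 on GRCh37 (plus strand, ENSG00000164400.4), was high in the AID-DIvA cells treated and recovered and low in their untreated counterparts. Recovered WT cells had 132, 51 and 81 counts, or 2.48, 1.17 and 1.49 CPM, against 8, 13 and 16 counts, or 0.162, 0.223 and 0.253 CPM, in untreated WT cells. Recovered KO cells had 122, 162 and 120 counts (3.48, 2.45 and 2.60 CPM) against 6, 10 and 2 counts (0.103, 0.137 and 0.0378 CPM) untreated. Every recovered library lay above every untreated one in both genotypes. In both comparisons CSF2 passed the low-count filter through the recovered group, and it did not pass between untreated KO and WT cells. The log2 difference was 3.0 (SE 0.32) in WT and 4.81 (SE 0.28) in KO cells, and both were called. The difference between genotypes in this response, 1.82 (SE 0.59) on the log2 scale, was not called.

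In U2OS cells, CSF2 separated by genotype. WT cells had 63, 83 and 63 counts untreated (0.975, 1.14 and 1.19 CPM) and 60, 35 and 64 counts on mocetinostat (0.917, 0.694 and 0.842 CPM). KO cells had 13, 9 and 14 counts untreated (0.252, 0.152 and 0.250 CPM) and 7, 3 and 14 counts on mocetinostat (0.118, 0.0550 and 0.212 CPM). All KO libraries were below all WT libraries at the same treatment, with log2 differences of -2.34 (SE 0.26) untreated and -2.62 (SE 0.34) treated, both called. CSF2 passed the low-count filter there through the WT libraries, and KO libraries had 3 to 14 counts. Without the WT library that stood apart, the untreated difference was -2.42. Mocetinostat against untreated gave -0.41 (SE 0.19) in WT cells, where the groups did not overlap, and -0.69 (SE 0.46) in KO cells, where they did, and neither was called. The WT value was -0.49 without the library that stood apart.

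The order of the 8 groups for CSF2 therefore ran from recovered KO AID-DIvA cells at 2.84 ± 0.56 CPM (SD, n = 3) and recovered WT AID-DIvA cells at 1.71 ± 0.68 CPM, which overlapped, to untreated WT U2OS cells at 1.10 ± 0.11 CPM, whose highest library exceeded the lowest recovered WT library. Treated WT U2OS cells followed at 0.818 ± 0.113 CPM and were separate from their neighbours on both sides. The remaining 4 groups, between 0.0925 and 0.218 CPM on average, overlapped one after the other. In the genotype comparison of recovered AID-DIvA cells, KO minus WT was 0.68 (SE 0.24) and not called, but became 1.03 and was called when replicate 1 of the recovered WT cells was left out.

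CSF3, at chr17:38171614-38174066 (plus strand, ENSG00000108342.8), was counted almost only in U2OS cells collected on mocetinostat. Treated WT cells had 159, 117 and 211 counts, or 2.43, 2.32 and 2.78 CPM, and untreated WT cells 0, 1 and 0 counts. Treated KO cells had 150, 80 and 169 counts, or 2.52, 1.47 and 2.56 CPM, and untreated KO cells 0, 1 and 2 counts. The 2 treated groups overlapped each other and neither overlapped any other group.

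With 487 counts against 1, the treated to untreated ratio of CSF3 in WT cells was 482, with a 95% exact interval of 86.1 to 19086. In KO cells, 399 counts against 3 gave a ratio of 123, with an interval of 41.9 to 600.2. These intervals cover counting error only. CSF3 was called in both comparisons, and it passed the low-count filter there through the treated group alone. In the 12 AID-DIvA libraries it had 0 to 3 counts, so that at this depth no level after recovery could be distinguished from that of untreated cells.

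LIF, at chr22:30636436-30642840 (minus strand, ENSG00000128342.4), was lower in U2OS cells collected on mocetinostat. Untreated WT cells had 159.7, 161 and 155 CPM and treated WT cells 40.7, 37.6 and 35.9 CPM. In the KO cells, 110.5, 112 and 108 CPM untreated stood against 25.9, 24.2 and 26.5 CPM treated. No treated library reached an untreated one. The log2 differences were -2.05 (SE 0.08) in WT and -2.11 (SE 0.05) in KO cells, and both were called. The genotype by treatment interaction was -0.05 (SE 0.09) and not called. Leaving out the WT library that stood apart left the WT difference at -2.05.

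After recovery, LIF in AID-DIvA cells was slightly above the untreated level. Recovered WT cells had 105, 117 and 119 CPM and untreated WT cells 94.6, 91.7 and 88.2 CPM. Recovered KO cells had 128, 105 and 100.1 CPM and untreated KO cells 95.3, 86.4 and 93.6 CPM. Groups did not overlap in either genotype, but the log2 differences of 0.32 (SE 0.05) and 0.27 (SE 0.08) were under the fold threshold. By genotype, LIF in KO U2OS cells lay below WT, with log2 differences of -0.52 (SE 0.07) untreated and -0.57 (SE 0.06) treated, also under that threshold. The untreated value was -0.52 as well without the library that stood apart. In AID-DIvA cells the genotypes overlapped at both conditions.

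Untreated WT U2OS cells, at 159 ± 3.23 CPM, thus had the most LIF of the 8 groups and were separate from the rest. Recovered WT and KO AID-DIvA cells and untreated KO U2OS cells, at 114 ± 7.48, 111 ± 15.0 and 110.4 ± 2.02 CPM, overlapped in turn. Untreated AID-DIvA cells of both genotypes also overlapped, and the treated U2OS groups, at 38.1 ± 2.45 CPM for WT and 25.5 ± 1.20 CPM for KO, came last and apart from each other. LIF shares bases with 2 genes of the opposite strand, RP1-102K2.6 and RP1-102K2.8. Its reads of the sense strand alone came to 104% of the deposited count over both strands. featureCounts by default leaves out reads that fall on 2 genes, and the part of this in the LIF counts was not tested.

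CSF1, at chr1:110452864-110473614 (plus strand, ENSG00000184371.9), varied least among the ligands, from 9.26 to 20.2 CPM over all 24 libraries. Recovered KO AID-DIvA cells had the most, with 20.2, 18.4 and 18.1 CPM against 11.6, 11.4 and 13.5 CPM in untreated KO cells. Recovered WT cells had 12.7, 13.7 and 12.9 CPM against 12.1, 12.6 and 11.3 CPM untreated. Recovered libraries were higher throughout in both genotypes, by 0.64 (SE 0.09) in KO and 0.14 (SE 0.07) in WT cells on the log2 scale, both under the fold threshold. The difference between these 2 responses, 0.50 (SE 0.11), was called, for which no fold threshold was set. The call was lost with the replicate block and in 9 of the 12 fits that each left out a library.

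In U2OS cells, CSF1 differed in the other direction. Untreated WT cells had 13.04, 12.2 and 10.99 CPM and treated WT cells 10.6, 9.26 and 10.3 CPM, while KO cells had 15.7, 14.7 and 14.9 CPM untreated and 11.6, 10.01 and 10.9 CPM treated. Treated libraries were lower throughout, at log2 differences of -0.26 (SE 0.10) and -0.47 (SE 0.07), and neither was called. Without the library that stood apart the WT value was -0.20, and KO minus WT among untreated cells was 0.37 and not called. The highest and the second group in order, recovered KO AID-DIvA cells at 18.9 ± 1.13 CPM and untreated KO U2OS cells at 15.1 ± 0.53 CPM, were each separate from the group below, and all later neighbours overlapped.

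**Figure D1:**
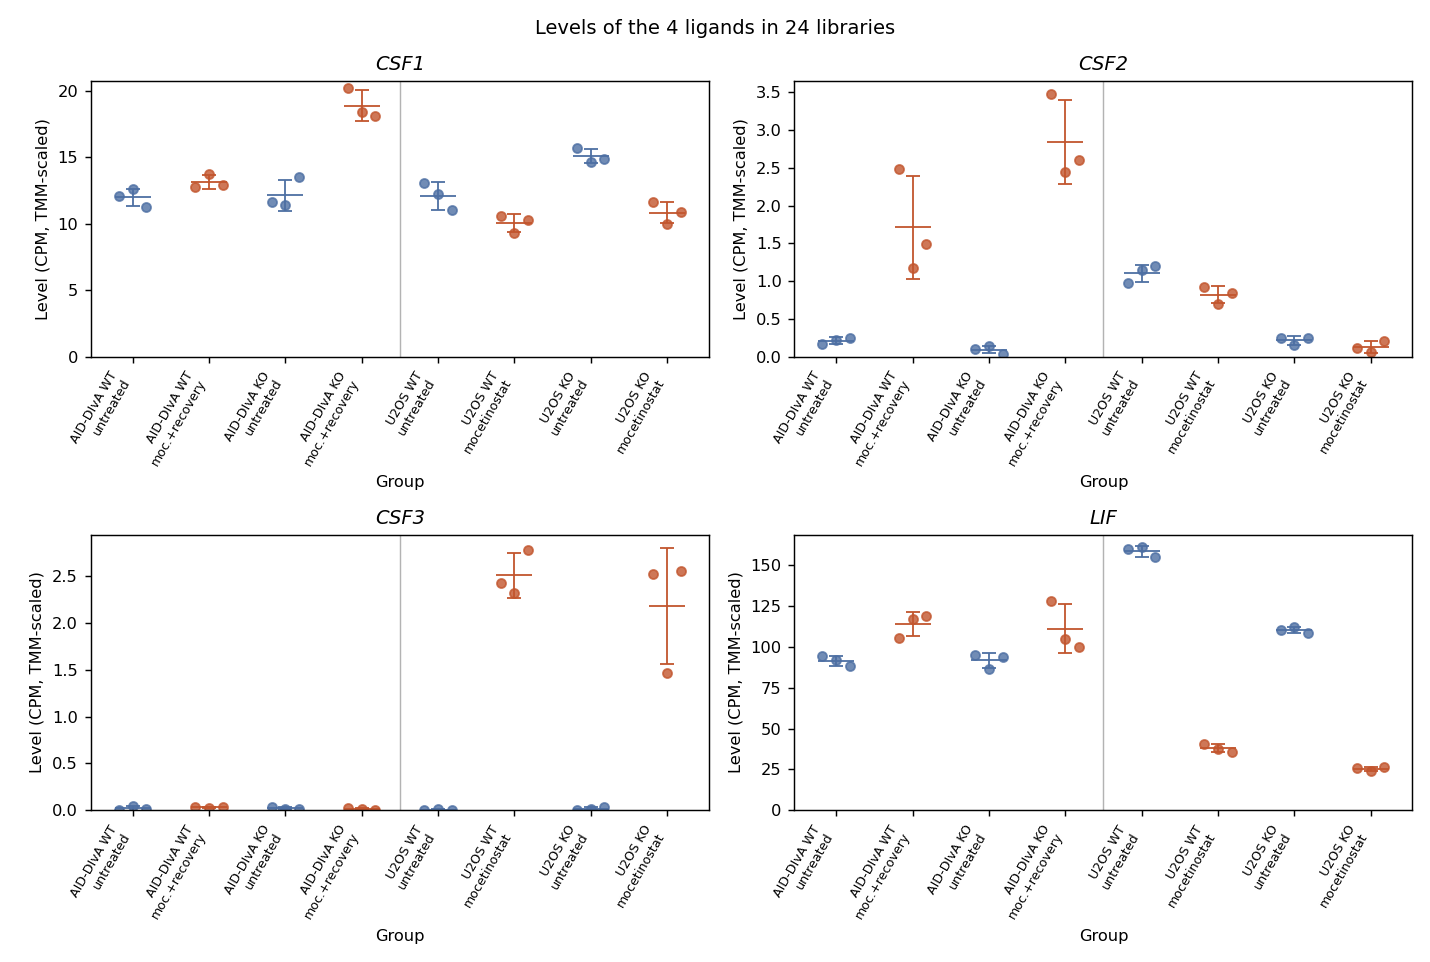
Levels of CSF1, CSF2, CSF3 and LIF in CPM (TMM-scaled, linear axes from 0) for the 8 groups; points are libraries, horizontal bars the mean of 3 and whiskers the SD, with untreated groups in blue and mocetinostat groups in orange. CSF3 stands clear of 0 only in the 6 treated U2OS libraries (1.47 to 2.78 CPM), and LIF is lowest in the same libraries.

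CSF1R, at chr5:149432854-149492935 (minus strand, ENSG00000182578.9), was the only one of the 8 genes called in the same direction in all 4 treatment comparisons, where the titles give the AID-DIvA treatments. With the treatment field it would be called in opposite directions in the 2 lines. In AID-DIvA cells it had 3.10, 4.19 and 4.30 CPM in recovered WT against 1.11, 0.928 and 1.41 CPM in untreated WT cells, and 2.28, 1.69 and 2.38 CPM in recovered KO against 0.670, 0.492 and 0.623 CPM in untreated KO cells. The U2OS values were 3.82, 3.87 and 3.70 CPM in treated WT against 1.19, 1.36 and 1.52 CPM untreated, and 3.18, 2.25 and 2.47 CPM in treated KO against 0.485, 0.742 and 0.570 CPM untreated. Treated and untreated libraries overlapped in none of these comparisons.

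The log2 differences of CSF1R were 1.75 (SE 0.17) in WT AID-DIvA, 1.82 (SE 0.19) in KO AID-DIvA, 1.496 (SE 0.13) in WT U2OS and 2.13 (SE 0.19) in KO U2OS cells. Without the library that stood apart, the WT U2OS value was 1.41. Neither interaction was called, at 0.08 (SE 0.28) in AID-DIvA and 0.64 (SE 0.24) in U2OS cells. KO cells lay below WT cells without overlap in all 4 settings. Among all tested genes, groups of the 2 genotypes did not overlap for 47% in untreated AID-DIvA, 40.2% in recovered AID-DIvA, 40.4% in untreated U2OS and 47.2% in treated U2OS cells. The CSF1R difference was called in untreated U2OS cells, at -1.17 (SE 0.22), and not called at -0.995 (SE 0.20) in untreated AID-DIvA, -0.90 (SE 0.17) in recovered AID-DIvA and -0.52 (SE 0.12) in treated U2OS cells.

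These genotype calls lay close to the threshold. The call in untreated U2OS cells was lost without KO replicate 1 (-1.04) or without KO replicate 3 (-1.14), and it was -1.25 and called without the WT library that stood apart. Conversely, CSF1R in untreated AID-DIvA cells was called without WT replicate 2 (-1.13) and on sense-strand reads alone (-1.21). Of its reads, 92.3% came from the sense strand, the lowest share among the genes above 3 counts, and it overlaps the gene CTB-13H5.1. The order of groups began with recovered WT AID-DIvA and treated WT U2OS cells, at 3.86 ± 0.66 and 3.80 ± 0.09 CPM, which overlapped, and ended with both untreated KO groups, at 0.599 ± 0.131 CPM in U2OS and 0.595 ± 0.092 CPM in AID-DIvA cells, which overlapped too.

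CSF1R is a defining gene of the monocyte lineage, and a list of 7 leukocyte markers was read beside it. Its summed level was 5.56 to 6.03 CPM in recovered and 2.10 to 2.22 CPM in untreated WT AID-DIvA cells, and 4.29 to 5.73 against 1.01 to 1.40 CPM in KO AID-DIvA cells. In U2OS cells it was 3.83 to 3.95 against 1.58 to 2.12 CPM in WT and 2.57 to 3.16 against 1.48 to 1.74 CPM in KO cells. Most of this sum was ITGAM, at 0.412 to 5.55 CPM. PTPRC stayed at or below 0.407 CPM in every library, CD14 at or below 0.487 CPM and SPI1 at or below 0.312 CPM. LYZ and CD3E had at most 3 counts and were each at 0 in 17 libraries. The part of such cells in the CSF1R values was not tested.

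LIFR, at chr5:38475065-38608456 (minus strand, ENSG00000113594.5), was higher in U2OS cells on mocetinostat, the reverse of its ligand. Treated WT cells had 92.4, 95.9 and 96.8 CPM and untreated WT cells 31.6, 43.9 and 46.1 CPM, the lowest of them being the library that stood apart. Treated KO cells had 98.6, 105 and 97.0 CPM and untreated KO cells 47.2, 47.5 and 48.5 CPM. Both log2 differences were called, at 1.24 (SE 0.14) in WT and 1.08 (SE 0.05) in KO cells. The WT value was 1.09 without that library, still called.

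In recovered AID-DIvA cells LIFR was lower than in untreated ones. The values were 50.5, 50.6 and 49.5 CPM against 67.3, 67.1 and 71.9 CPM in WT, and 36.5, 50.5 and 57.3 CPM against 75.2, 75.7 and 68.1 CPM in KO cells. Groups did not overlap, and the log2 differences of -0.44 (SE 0.05) and -0.59 (SE 0.15) were under the fold threshold. KO minus WT ranged from -0.07 to 0.23 over the 4 settings, none of them called. The largest of these, 0.23 (SE 0.14) in untreated U2OS cells, was 0.09 without the WT library that stood apart.

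Ligand and receptor therefore traded places in rank. Treated U2OS cells were the 2 highest groups for LIFR, at 100.2 ± 4.29 CPM in KO and 95.01 ± 2.35 CPM in WT, and the 2 lowest for LIF. Untreated WT U2OS cells were highest for LIF and lowest for LIFR, at 40.5 ± 7.80 CPM. The untreated AID-DIvA groups lay between, with LIFR at 73.0 ± 4.25 CPM in KO and 68.7 ± 2.72 CPM in WT.

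CSF2RA, at chrX:1387693-1429274 (plus strand, ENSG00000198223.10), stayed within 5.25 to 10.1 CPM and was called in no comparison. U2OS cells on mocetinostat had 8.97, 9.26 and 10.1 CPM in WT against 7.18, 5.85 and 6.37 CPM untreated, and 9.67, 9.04 and 9.53 CPM in KO against 7.25, 7.39 and 7.02 CPM untreated. Treated libraries were higher throughout, by 0.55 (SE 0.11) and 0.39 (SE 0.07) on the log2 scale. Without the library that stood apart the WT value was 0.64, and KO minus WT among untreated cells was 0.25, neither of them called. Recovered and untreated AID-DIvA cells overlapped in both genotypes, with log2 differences of 0.10 (SE 0.12) in WT and -0.06 (SE 0.08) in KO cells. Among untreated AID-DIvA cells, KO was above WT without overlap, by 0.42 (SE 0.08).

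CSF3R, at chr1:36931644-36948879 (minus strand, ENSG00000119535.13), had 0 to 3 counts in every library and never passed the filter. The 3 treated KO U2OS libraries had 3 counts each and the treated WT U2OS libraries 2, 2 and 3, while all 3 untreated KO U2OS libraries had none. These counts are at the floor of 3 per library, and no fold is given.

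**Figure D2:**
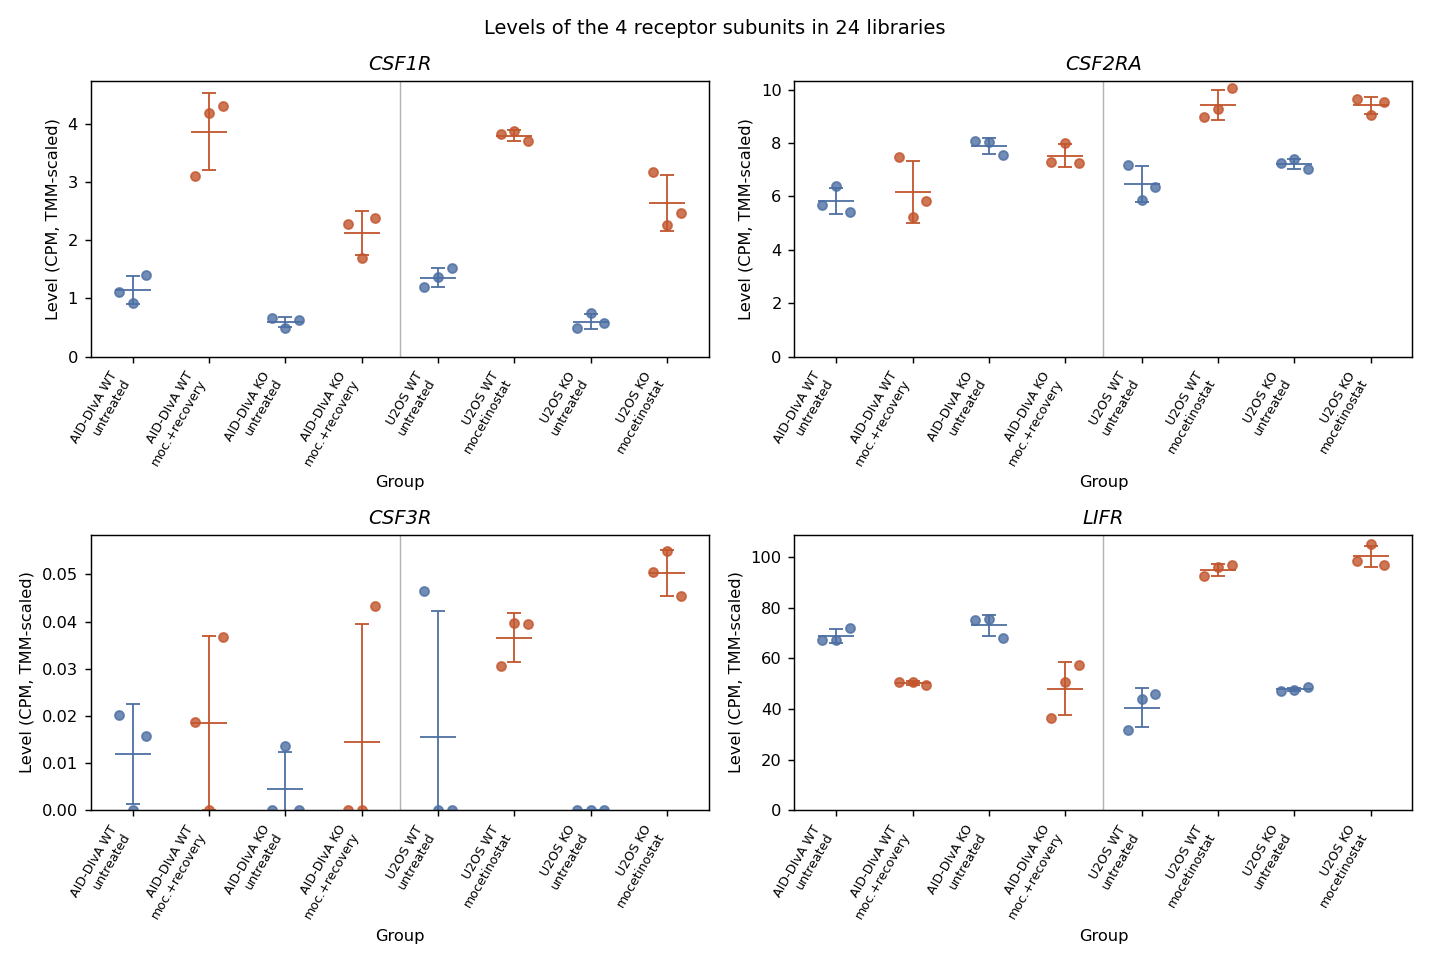
Levels of CSF1R, CSF2RA, CSF3R and LIFR in CPM (TMM-scaled, linear axes from 0) for the 8 groups; points are libraries, horizontal bars the mean of 3 and whiskers the SD, with untreated groups in blue and mocetinostat groups in orange. CSF1R is above its untreated level in all 4 pairs of groups, and LIFR lies above it in U2OS and below it in AID-DIvA cells, while each CSF3R point stands for 0 to 3 counts and its whiskers are clipped at 0.

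Counted over the 8 genes, 2 were called up and none down in WT AID-DIvA cells, where 4.86% of all tested genes were called up and 2.52% down. In KO AID-DIvA cells, 2 were called up and none down, against 4.9% and 2.56% of all tested genes. WT U2OS cells had 3 called up and 1 down, against 13.6% and 5.06%, and KO U2OS cells 3 up and 1 down, against 14.6% and 5.77%. Since the genes were chosen with these values known, nothing is read from the counts. Groups did not overlap for 5 of 8 genes in WT AID-DIvA, 5 in KO AID-DIvA, 7 in WT U2OS and 7 in KO U2OS cells, where 56.1%, 52.5%, 61.4% and 72.4% of all tested genes had groups that did not overlap. The last count includes CSF3R, at 3 counts in each treated library and none in the untreated ones.

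By genotype, no gene of the 8 was called in untreated or in recovered AID-DIvA cells, where 4.58% and 4.76% of all tested genes were called either way. CSF2 and CSF1R were called down in untreated U2OS cells, where 4.26% of genes were called either way, and CSF2 in treated U2OS cells, where 3.49% were. CSF2 did not pass the filter in untreated AID-DIvA cells.

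With the adjusted p alone and no fold threshold, 4 of the 8 genes passed in WT AID-DIvA, 5 in KO AID-DIvA, 5 in WT U2OS and 6 in KO U2OS cells, where 46.9%, 40.1%, 48.9% and 69.9% of all tested genes did. By genotype, 2 passed in untreated AID-DIvA, 2 in recovered AID-DIvA, 3 in untreated U2OS and 3 in treated U2OS cells, against 36.7%, 23.7%, 15.2% and 37.9% of all tested genes. Of the interactions, that of CSF1 in AID-DIvA cells was called, where 1.21% of genes were, and none in U2OS cells, where 2.15% were.

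**Figure D3:**
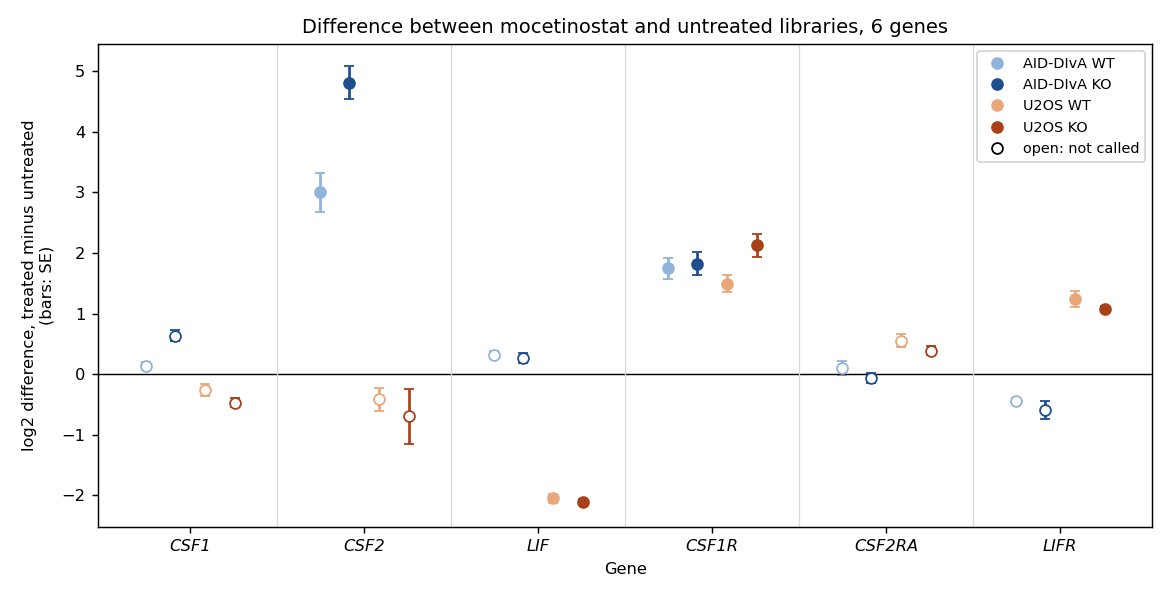
log2 difference between mocetinostat-treated and untreated libraries for the 6 genes with more than 3 counts in every group; bars are the SE of the edgeR fit, filled points were called and open ones were not. CSF1R is above 0 in all 4 comparisons (1.496 to 2.13), CSF2 is called in AID-DIvA cells only, and LIF and LIFR are called, in opposite directions, in U2OS cells only.

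Other genes of these pathways were read from 4 lists of 58 genes in all, and for them adjusted p-values of the same edgeR quasi-likelihood fits are given. These lists, and the neighbouring genes further below, were also chosen with earlier results of these data known. Most genes named from them were picked as called genes with the largest differences. Their p-values thus describe these genes and are not a test of the lists. WT AID-DIvA cells had 8 genes called up and 1 down among 46 tested, and KO AID-DIvA cells 7 up and none down among 47. In WT U2OS cells, 11 were called up and 5 down among 49, where 18.6% of all tested genes were called either way, and in KO U2OS cells 12 up and 3 down among 48, where 20.3% were. For AID-DIvA cells the shares over all genes were 7.38% in WT and 7.46% in KO. Median log2 differences of the lists together were -0.02, 0.00, 0.32 and 0.21 in the same order, and those of all tested genes were between -0.02 and 0.01.

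The 15 other ligands comprised relatives of LIF, of the colony-stimulating factors and of their partners. IL34, the second ligand of CSF1R, rose in WT U2OS cells from 0.316 ± 0.022 to 1.12 ± 0.18 CPM (SD, n = 3), a log2 difference of 1.84 (SE 0.22, edgeR adjusted p = 3.4e-04), and it was also called up in KO U2OS cells and in KO AID-DIvA cells.

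CLCF1 and CTF1, LIF-related ligands that signal through LIFR and IL6ST, fell with LIF in U2OS cells. CLCF1 fell from 16.7 ± 0.82 to 3.84 ± 0.14 CPM in WT cells, at a log2 difference of -2.11 (SE 0.09, edgeR adjusted p = 2.6e-06), and from 19.9 ± 0.55 to 4.24 ± 0.28 CPM in KO cells, at -2.22 (SE 0.07, edgeR adjusted p = 1.8e-17). CTF1, cardiotrophin, fell by 1.67 (SE 0.11, edgeR adjusted p = 1.4e-05) and by 1.52 (SE 0.08, edgeR adjusted p = 2.4e-13) on the log2 scale in the same cells. In AID-DIvA cells neither was called.

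IL6 and IL11, which use IL6ST without LIFR, were called in WT AID-DIvA cells and in none of the other 3 comparisons. There IL6 rose from 0.428 ± 0.110 to 1.85 ± 0.43 CPM, by 2.15 (SE 0.23, edgeR adjusted p = 4.7e-06) on the log2 scale, and IL11 from 9.89 ± 0.46 to 20.6 ± 0.71 CPM, by 1.07 (SE 0.06, edgeR adjusted p = 2.7e-08). The KO response of IL6 was 0.67 (SE 0.26, edgeR adjusted p = 0.062), and the difference between genotypes was -1.47 (SE 0.37, edgeR adjusted p = 0.073), while that of IL11 was -0.44 (SE 0.13, edgeR adjusted p = 0.13). In U2OS cells IL6 differed by 0.99 (SE 0.32, edgeR adjusted p = 0.035) in WT and 0.78 (SE 0.26, edgeR adjusted p = 0.011) in KO, under the fold threshold. IL11 differed by 0.62 (SE 0.11, edgeR adjusted p = 0.0015) in KO AID-DIvA cells, also under it, and by -0.04 and 0.07 in WT and KO U2OS cells. EBI3, a subunit of interleukin-27, rose by 1.58 (SE 0.09, edgeR adjusted p = 1.2e-08) in WT and by 2.25 (SE 0.12, edgeR adjusted p = 8.7e-07) in KO AID-DIvA cells. Its AID-DIvA responses differed by 0.68 (SE 0.15, edgeR adjusted p = 0.04), a call lost with the replicate block and in 8 of 12 fits leaving out a library. EBI3 also rose in KO U2OS cells, by 1.25 (SE 0.09, edgeR adjusted p = 2.7e-11), and differed by 0.89 (SE 0.09, edgeR adjusted p = 1.3e-04) in WT U2OS cells, under the fold threshold. In untreated cells it was lower in KO than in WT, at -1.04 (SE 0.10, edgeR adjusted p = 6.8e-07) in AID-DIvA and -1.18 (SE 0.10, edgeR adjusted p = 3.3e-04) in U2OS cells. KITLG, the ligand of KIT, rose in U2OS cells from 4.53 ± 1.26 to 14.7 ± 1.08 CPM in WT and from 8.50 ± 0.16 to 27.2 ± 0.81 CPM in KO cells.

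Of the 13 other receptor subunits, 9 were tested in each treatment comparison. In WT AID-DIvA, KO AID-DIvA, WT U2OS and KO U2OS cells, 2, 2, 4 and 4 were called up. Of all tested genes, 4.86%, 4.9%, 13.6% and 14.6% were called up in the same order. None of the 9 was called down, where 2.52% to 5.77% of all tested genes were, and 9 genes are too few to read anything from this. Without the fold threshold, 2 were down in each AID-DIvA comparison. CSF2RB, without which CSF2RA does not signal, passed the filter in none of them. IL6R, the receptor chain of interleukin-6, rose in all 4 comparisons. It rose by 1.22 (SE 0.06, edgeR adjusted p = 5.3e-09) in WT AID-DIvA, 1.51 (SE 0.08, edgeR adjusted p = 7.1e-07) in KO AID-DIvA, 1.01 (SE 0.10, edgeR adjusted p = 1.4e-04) in WT U2OS and 1.01 (SE 0.07, edgeR adjusted p = 5.1e-12) in KO U2OS cells. The U2OS calls lay at the fold threshold. Without the library that stood apart, the WT value was 0.92 and not called, and the KO value was 0.98 and not called without treated replicate 2 and 0.99 without untreated replicate 3.

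CNTFR, the receptor chain of ciliary neurotrophic factor that joins LIFR and IL6ST, rose in U2OS cells from 9.07 ± 0.35 to 33.7 ± 1.42 CPM in WT, at 1.91 (SE 0.08, edgeR adjusted p = 2.3e-06), and from 12.02 ± 0.56 to 42.6 ± 2.58 CPM in KO, at 1.83 (SE 0.06, edgeR adjusted p = 2.2e-17). IL3RA, which like CSF2RA pairs with CSF2RB and lies next to it, rose from 1.96 ± 0.44 to 10.7 ± 0.41 CPM in WT and from 1.44 ± 0.20 to 6.70 ± 1.10 CPM in KO U2OS cells. IL6ST itself differed by 0.46 (SE 0.19, edgeR adjusted p = 0.076) in WT and 0.31 (SE 0.04, edgeR adjusted p = 1.5e-06) in KO U2OS cells, under the fold threshold in both.

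All 13 signal transducers were tested in each treatment comparison. In AID-DIvA cells 0 were called in WT and 0 in KO, where 7.38% and 7.46% of all tested genes were called either way. WT U2OS cells had 1 called up and 1 down, against 18.6% of all tested genes, and KO U2OS cells 1 down, against 20.3%. GAB2, an adaptor of these receptors, rose in WT U2OS cells from 18.3 ± 3.43 to 43.2 ± 1.23 CPM, at 1.25 (SE 0.13, edgeR adjusted p = 1.9e-04). In KO U2OS cells it had 31.0 ± 1.69 and 59.6 ± 0.84 CPM, at 0.95 (SE 0.05, edgeR adjusted p = 9.7e-14), under the fold threshold, and the difference between genotypes was -0.30 (SE 0.14, edgeR adjusted p = 0.4). PTPN6, a phosphatase that dampens cytokine receptors, was called down in both U2OS comparisons, at -1.85 (SE 0.24, edgeR adjusted p = 5.0e-04) in WT and -1.45 (SE 0.18, edgeR adjusted p = 1.6e-07) in KO cells. On sense-strand reads alone it was at -0.55 and -0.28 and was not called. STAT3, the main effector of LIF, differed by -0.26 and -0.37 in WT and KO AID-DIvA cells and by 0.32 and 0.15 in WT and KO U2OS cells, all under the fold threshold. The one transducer with a called interaction was STAT5A in U2OS cells, at -0.66 (SE 0.15, edgeR adjusted p = 0.04), lost with the replicate block and in 10 of 12 fits leaving out a library.

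Among 17 feedback and target genes, LRG1, an acute-phase gene downstream of STAT3, was called up in all 4 comparisons, with 3.23 ± 0.28 against 0.299 ± 0.061 CPM in WT AID-DIvA cells, a log2 difference of 3.40 (SE 0.17, edgeR adjusted p = 5.2e-09). Untreated KO cells had 0.0588 ± 0.0086 CPM of LRG1 in AID-DIvA and 0.0397 ± 0.0540 CPM in U2OS. These means are close to the limit of 0.0390 to 0.0792 CPM given above for a gene with no read in a single library of the series. SOCS1, an inhibitor of JAK kinases, fell in WT cells of both lines, by 1.45 (SE 0.17, edgeR adjusted p = 1.4e-05) in AID-DIvA and 1.40 (SE 0.19, edgeR adjusted p = 5.9e-04) in U2OS cells. Its response differed between genotypes, by 1.13 (SE 0.24, edgeR adjusted p = 0.025) in AID-DIvA and 1.33 (SE 0.21, edgeR adjusted p = 0.0041) in U2OS cells. The AID-DIvA call was lost with the replicate block and in 5 of 12 fits leaving out a library, and the U2OS call in none of these. SOCS3, the inhibitor induced by LIF, was called in none of the 4 comparisons, at -0.12, -0.23, 0.34 and 0.22.

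MYC rose in AID-DIvA cells from 199 ± 6.23 to 531 ± 17.3 CPM in WT and from 157 ± 5.66 to 492 ± 70.1 CPM in KO. SOCS2 and CISH, the inhibitors induced through STAT5, rose by 1.09 (SE 0.13, edgeR adjusted p = 1.2e-07) and 1.09 (SE 0.10, edgeR adjusted p = 1.0e-09) in KO U2OS cells and were also called up in WT U2OS cells. FOS rose in U2OS cells from 50.3 ± 7.47 to 137 ± 31.9 CPM in WT and from 17.9 ± 2.86 to 46.1 ± 5.57 CPM in KO. CEBPD, a regulator of myeloid genes, rose by 1.13 (SE 0.11, edgeR adjusted p = 1.8e-06) in WT AID-DIvA cells and fell by 1.19 (SE 0.21, edgeR adjusted p = 0.0024) in WT U2OS cells. The latter was -0.93 and not called without the library that stood apart.

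**Figure D4:**
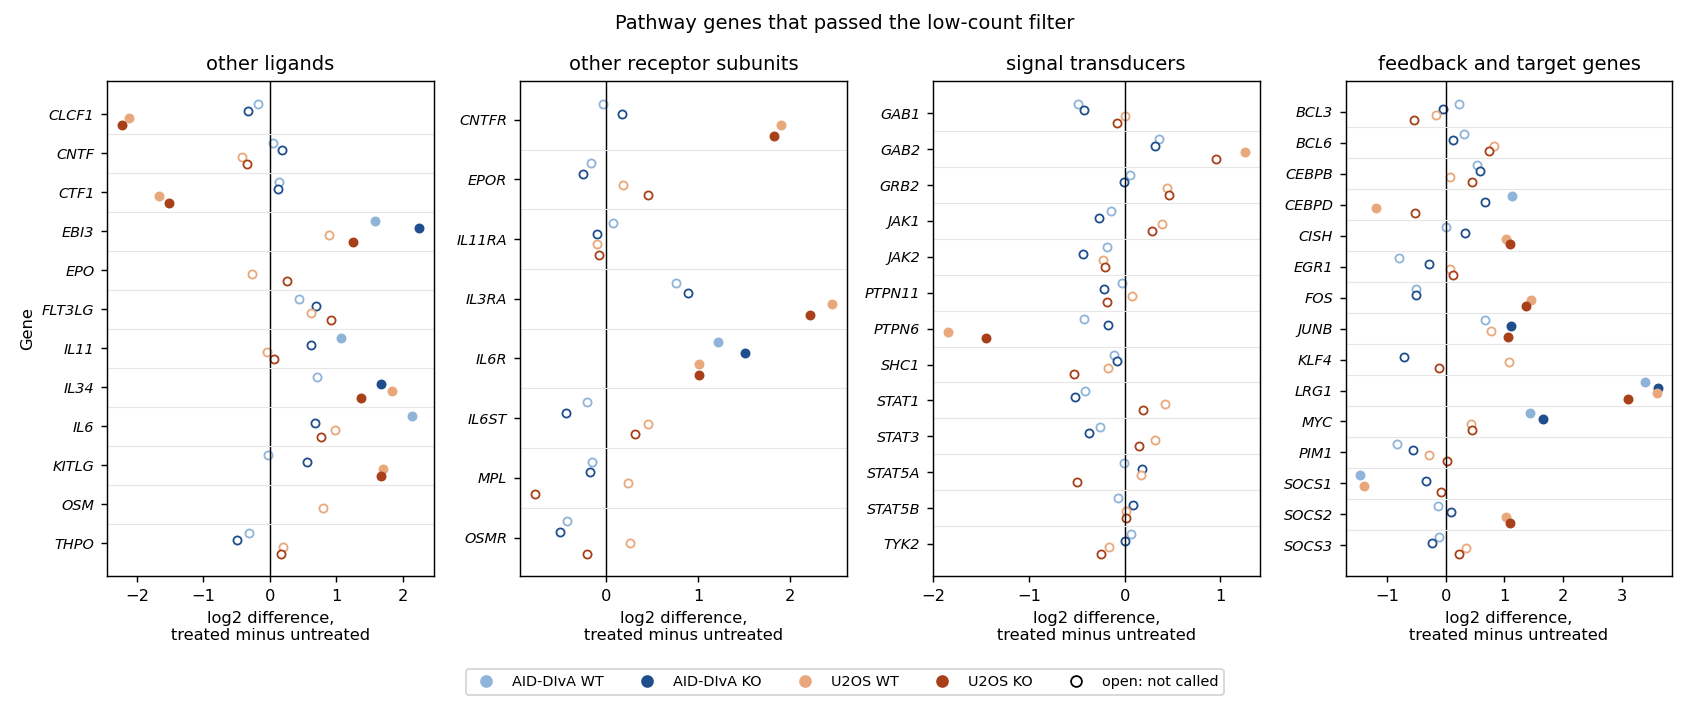
log2 difference between mocetinostat-treated and untreated libraries for genes of the 4 pathway lists that passed the filter, with 1 point per comparison; filled points were called and open ones were not. CLCF1 and CTF1 are called down in both U2OS comparisons and called in neither AID-DIvA comparison, IL6R and LRG1 are above 0 in all 4 comparisons, and most signal transducers lie near 0.

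Between genotypes, feedback and target genes had 3 called down of 14 tested in untreated U2OS cells (SOCS1, FOS and JUNB) and 3 of 15 in treated U2OS cells (FOS, JUNB and LRG1), where 4.26% and 3.49% of all tested genes were called either way. SOCS1, at -1.02 (SE 0.17, edgeR adjusted p = 0.0073), was at -0.81 and not called without the library that stood apart. JUNB was lower in KO than in WT, at log2 differences of -1.502 (SE 0.17, edgeR adjusted p = 0.0015) untreated and -1.20 (SE 0.13, edgeR adjusted p = 7.5e-04) treated. IL34 was lower in treated KO than in treated WT U2OS cells, at 0.401 ± 0.099 against 1.12 ± 0.18 CPM. LRG1 was lower in KO than in WT in untreated AID-DIvA cells, at -2.33 (SE 0.39, edgeR adjusted p = 2.0e-04), and after treatment in both lines, at -2.11 (SE 0.15, edgeR adjusted p = 6.3e-06) in AID-DIvA and -2.12 (SE 0.26, edgeR adjusted p = 4.1e-07) in U2OS cells. The untreated AID-DIvA levels were 0.0588 ± 0.0086 CPM in KO, close to the limit for a gene with no read in a single library, and 0.299 ± 0.061 CPM in WT. In recovered AID-DIvA cells IL6 was lower and KITLG higher in KO, at -1.61 (SE 0.24, edgeR adjusted p = 9.0e-04) and 1.07 (SE 0.20, edgeR adjusted p = 0.0044). Of 15 feedback and target genes tested, 1 was called up and 1 down in untreated AID-DIvA cells, and 2 down in recovered ones. Of all tested genes, 4.58% and 4.76% were called either way there. The gene called up was KLF4, at 1.03 (SE 0.35, edgeR adjusted p = 0.031), with 0.367 ± 0.046 CPM in KO and 0.184 ± 0.107 CPM in WT.

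Within 100 kb of the 8 genes the tables list 70 other genes, of which 33 to 38 were tested in a treatment comparison. Called genes were few in AID-DIvA cells (1 in WT, 2 in KO, all up) and numbered 10 in WT U2OS cells (7 up, 3 down) and 12 in KO U2OS cells (7 up, 5 down). Tested neighbours numbered 33, 34, 38 and 36 in this order, and 7.38%, 7.46%, 18.6% and 20.3% of all tested genes were called. Next to CSF3, the opposite-strand gene RP11-387H17.6, whose start lies 0.656 kb upstream of it, rose in the same cells as CSF3, from 0.0930 ± 0.0346 to 2.04 ± 0.19 CPM in WT and from 0.0768 ± 0.0741 to 1.84 ± 0.21 CPM in KO U2OS cells. MED24, a Mediator subunit whose start lies 45.9 kb downstream of the CSF3 start, fell from 137.5 ± 1.27 to 65.3 ± 2.70 CPM in WT and from 83.6 ± 2.52 to 32.9 ± 1.73 CPM in KO U2OS cells. GSDMA, a gasdermin whose start lies 52.4 kb upstream, rose in all 4 comparisons, by 1.63 (SE 0.19, edgeR adjusted p = 1.0e-05) in WT and 1.49 (SE 0.21, edgeR adjusted p = 4.3e-04) in KO AID-DIvA cells, and by 1.67 (SE 0.26, edgeR adjusted p = 0.0013) in WT and 1.14 (SE 0.31, edgeR adjusted p = 0.0028) in KO U2OS cells.

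Near CSF2, the fatty acid ligase gene ACSL6, with its start 61.5 kb upstream, rose from 0.1004 ± 0.0212 to 2.30 ± 0.42 CPM in WT U2OS cells, at 4.504 (SE 0.27, edgeR adjusted p = 1.1e-05), and from 0.0890 ± 0.0254 to 2.39 ± 0.08 CPM in KO U2OS cells. CSF2 itself was not called there. CSF2RA had 4 called neighbours in each U2OS comparison, 3 up and 1 down. ASMTL rose from 33.2 ± 1.86 to 133 ± 2.41 CPM in WT and from 28.4 ± 0.72 to 125 ± 7.51 CPM in KO U2OS cells, and the cytokine receptor genes CRLF2 and IL3RA rose on either side of CSF2RA, while CSF2RA was not called. CRLF2 rose by 2.95 (SE 0.21, edgeR adjusted p = 2.6e-05) in WT and by 2.15 (SE 0.12, edgeR adjusted p = 3.0e-13) in KO cells.

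RP1-102K2.8, which overlaps LIF on the opposite strand, fell with it in U2OS cells, from 2.52 ± 0.60 to 0.638 ± 0.123 CPM in WT and from 1.53 ± 0.05 to 0.324 ± 0.058 CPM in KO. These are counts over both strands of a gene that shares bases with LIF, which had far more reads. No tested gene within 100 kb of CSF1, CSF1R, CSF3R or LIFR was called in any treatment comparison by edgeR or by DESeq2. Of these 14 tested genes, 9 in WT AID-DIvA, 9 in KO AID-DIvA, 7 in WT U2OS and 9 in KO U2OS cells had an unadjusted p below 0.05, where 53.3%, 49.1%, 55.3% and 71.8% of all tested genes did. CSF1 had 1 tested neighbour.

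**Figure D5:**
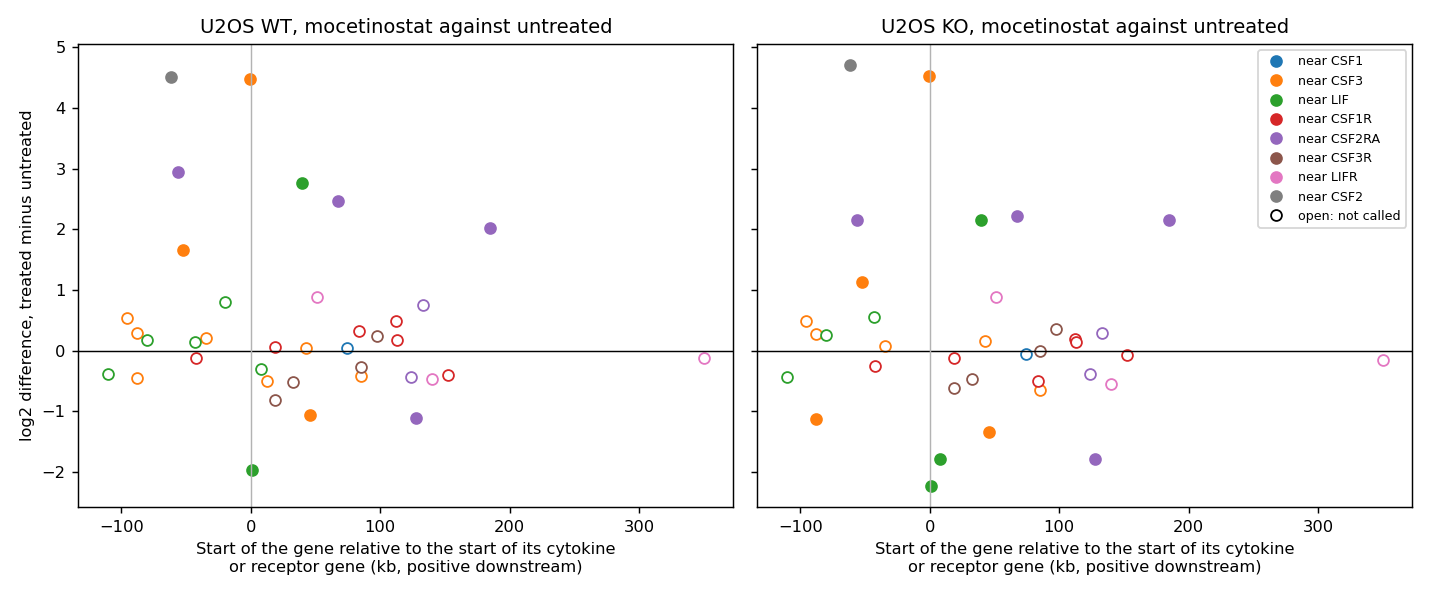
log2 difference between mocetinostat-treated and untreated U2OS cells (WT left, KO right) against the distance of each neighbouring gene's start from the start of its cytokine or receptor gene in kb; colours give the nearby gene of the 8, filled points were called and open ones were not. RP11-387H17.6, 0.656 kb from CSF3, and ACSL6, 61.5 kb from CSF2, are the highest points in both panels.

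Patterns across the 8 groups were compared with those of 15593 genes at a mean of 1 CPM or more, as the root mean square difference of the group means of log2(CPM + 0.5) after centring each gene. CSF2, CSF3 and CSF3R were below that level and were not compared. The 3 genes most like LIF were TGFB1I1 (0.18), NUPR1 (0.22) and C15orf52 (0.22), where the median over all genes was 0.84. TGFB1I1 had 29.4 and 7.42 CPM in untreated and treated WT U2OS cells and 25.7 and 5.33 CPM in KO U2OS cells, beside 18.4 to 21.6 CPM in the AID-DIvA groups.

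LIFR was closest to RALGPS2 (0.11), MAP1B (0.13) and HLTF (0.13), with a median over all genes of 0.55. RALGPS2 had 17.1 and 33.7 CPM in untreated and treated WT U2OS cells. In untreated and recovered WT AID-DIvA cells, by title, it had 25.2 and 19.3 CPM. Like LIFR, it was thus higher in treated U2OS and lower in recovered AID-DIvA cells, where line and stage differ together. CSF1R was closest to RP11-116D17.3 (0.14), C1orf116 (0.17) and LHFPL5 (0.20), with a median of 0.81. For CSF1 the nearest were TNFSF13, AXIN1 and NSUN5P2 (0.09 to 0.10) and for CSF2RA they were CMTM4, PCDHA5 and SETD3 (0.06 to 0.08), with medians of 0.36 and 0.37 over all genes. These distances are descriptions over 8 group means.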

How the data were processed

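RNA-seq was analysed from 24 libraries of WT and ID3-KO U2OS and AID-DIvA cells, grouped by sample title. Per the labels, stranded total RNA libraries were sequenced in pairs, and the authors' processing notes name STAR, featureCounts and hg19 (GRCh37), with versions not given in the sources used here. The deposited per-gene read counts were used as they stand, over both strands and, as an alternative, for the reverse strand, which is the sense strand of this kit. The deposited FPKM and TPM columns were not used.

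Counts were fitted with edgeR 4.0.16 (TMM, filterByExpr, robust quasi-likelihood, R 4.3.3) on the 6 libraries of each comparison and the 12 of each interaction, with Benjamini-Hochberg adjustment over all genes tested. A call needed a log2 difference beyond 1 together with an adjusted p under 0.05, and for interactions the latter alone. CPM levels used TMM factors over all 24 libraries. The ratio of counts with 1 to 3 in a group has an exact Clopper-Pearson interval. Scripts were tested on simulated counts.

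The genes described and the pathway, marker and neighbour lists were chosen with earlier results of these data known. All 8 genes are named. Of the listed genes, 2 enter the counts but are not reported here. From each pathway list and comparison, up to 4 called genes with the largest difference and a mean of at least 1 CPM in one group could be named, and likewise up to 4 neighbours of each gene. Genes named beyond these (STAT3, SOCS3, IL6ST, CSF2RB, and a few values below the limit) were chosen after their values were seen. Alternatives were DESeq2 1.42.0, its size factors in edgeR, other low-count filters, all 4 groups of a line in one fit, a replicate block, each library left out, no fold threshold, CPM without TMM, a pseudocount of 0.1 and, added after seeing the data, sense-strand counts.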

Additional observations from a re-analysis of the deposited data

Results flagged for a closer look

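For CSF1 in AID-DIvA cells, the fitted interaction of genotype and treatment, 0.50 (SE 0.11) on the log2 scale, was called. CSF1 was chosen with these values known, so this describes it and is not a test of it. The call was lost with the replicate block and in 9 of the 12 fits that each left out a library, where the value stayed between 0.46 and 0.59.

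For 4 genes, every treated library moved one way in AID-DIvA cells after recovery and the opposite way in U2OS cells before it, at the same genotype. Cell line and stage differ together in this contrast, and the difference was not tested. The AID-DIvA directions rest on the sample titles, and with the treatment field of the labels these genes would move the same way in both lines. CSF1 was at 0.14 in WT AID-DIvA against -0.26 in WT U2OS cells, and at 0.64 against -0.47 in KO cells, on the log2 scale. CSF2 was at 3.0 in WT AID-DIvA against -0.41 in WT U2OS cells. LIF was at 0.32 against -2.05 in WT and at 0.27 against -2.11 in KO cells. LIFR was at -0.44 against 1.24 in WT and at -0.59 against 1.08 in KO cells. CSF1 in WT cells of both lines and CSF2 in WT U2OS cells did not pass the adjusted p even without the fold threshold. Groups did not overlap for 56.1% of all tested genes in WT AID-DIvA, 52.5% in KO AID-DIvA, 61.4% in WT U2OS and 72.4% in KO U2OS cells. The share of all genes with opposite directions was not counted, so nothing is read from the number of genes here.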

How the results depend on the processing

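Depth limits CSF3 in AID-DIvA cells and CSF3R throughout, and CSF2 in KO cells, at 2 to 14 counts a library outside the recovered group. No called log2 difference of the 8 genes changed sign under any alternative run. Without the fold threshold, called genes of the 8 numbered 4 in WT AID-DIvA, 5 in KO AID-DIvA, 2 and 2 by genotype in untreated and recovered AID-DIvA, and 3 by genotype in treated U2OS cells. Pathway genes then numbered 26, 24, 27 and 36 in WT AID-DIvA, KO AID-DIvA, WT U2OS and KO U2OS cells, and neighbours 20, 14, 22 and 28.

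With at least 10 counts in every library, CSF2 was no longer tested where it was low, which left 1 called gene in WT and 1 in KO AID-DIvA cells, 1 by genotype in untreated U2OS and 0 in treated U2OS cells, and 1 neighbour in KO AID-DIvA cells. This filter also removed CSF3 from both U2OS treatment comparisons, where its untreated libraries had 0 to 2 counts. DESeq2 called 2 interactions in AID-DIvA cells, CSF2 besides CSF1, as did edgeR with no filter on low counts (2). DESeq2 called 2 neighbours in WT and 1 in KO AID-DIvA cells. With no filter 3 and with all 4 groups in one fit 2 neighbours were called in WT AID-DIvA cells. On sense-strand counts, 1 gene (CSF1R) was called by genotype in untreated AID-DIvA cells, and the neighbour RP11-387H17.4 in KO U2OS cells turned from -1.12 to 0.43.

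Leaving out each library in turn gave 0 to 2 called genes by genotype in untreated AID-DIvA cells, 0 to 2 in recovered AID-DIvA, 1 to 2 in untreated U2OS and 0 to 1 for the AID-DIvA interaction. Neighbours ranged from 1 to 3 in WT and 1 to 2 in KO AID-DIvA cells. Pathway genes ranged from 8 to 9, 6 to 8, 15 to 18 and 15 to 17.

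Replicate numbers are shared between groups, but same-numbered libraries did not deviate together, with correlations of deviations from -0.43 to 0.31, and no comparison had all 3 above 0.1. With the replicate block 0 interactions were called among the 8 genes in AID-DIvA cells, 2 genes stayed called in each AID-DIvA and 4 in each U2OS treatment comparison, and pathway genes numbered 9, 7, 17 and 15. With a pseudocount of 0.1, 1 of the 3 genes closest to LIF remained, 2 of 3 for CSF1, CSF1R and CSF2RA and all 3 for LIFR. Without TMM, LIF in treated U2OS cells was 41.2 CPM in WT and 27.2 CPM in KO, and LIFR 103 and 107 CPM.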
